A study of Mus musculus with 8 samples.

Results

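The 29 genes described here encode parts of the peroxisome in mouse brown adipose tissue: 13 peroxins, which build the organelle, 3 transporters of the ABCD family, 4 enzymes of ether lipid synthesis, 2 enzymes of alpha-oxidation, 2 further membrane proteins and 5 further matrix enzymes. They were chosen by gene symbol, with earlier results of these data known. Each of the 29 symbols matched 1 of the 41388 gene rows in the count tables. Brown adipose tissue came from 8 mice of the C57BL/6J strain, housed at room temperature with regular chow. In the 4 ANKO mice, floxed Nampt alleles were combined with a Cre transgene driven by the promoter of adiponectin, an adipocyte gene. The 4 WT mice were labelled wild type with flox/flox alleles, so both groups carried the floxed gene. Nampt encodes the enzyme that turns nicotinamide into nicotinamide mononucleotide in NAD+ salvage, and cells other than adipocytes keep an intact gene in this model. The labels used here give neither age nor sex.

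Peroxisomes shorten very long-chain fatty acids, remove the methyl branch of phytanic acid by alpha-oxidation, break down hydrogen peroxide and carry out the first steps of ether lipid and plasmalogen synthesis. Their membrane proteins are inserted with the help of PEX3, PEX16 and PEX19, while matrix enzymes are bound in the cytosol by the receptors PEX5 or PEX7, docked at PEX13 and PEX14 and delivered inside. A ring complex that includes PEX2 and PEX10 then ubiquitinates the receptor, and an ATPase complex that includes PEX6, anchored by PEX26, pulls it back out. Brown fat of mice is known to be rich in peroxisomes, and PPAR and PRDM16 transcription factors are known to act on peroxisomal genes there.

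Library totals ran from 5738067 to 26426476 counts in ANKO and from 21771276 to 49697156 counts in WT. Nampt had 67.4, 69.5, 77.6 and 74.6 CPM (counts scaled to a common library size) in the ANKO libraries, against 484, 484, 571 and 495 CPM in the WT libraries, so the labels fit the targeted gene. The tissue markers Ucp1, Cidea, Adipoq and Plin1 were read in every library. The summed level of 9 general adipocyte markers was 6071 to 9161 CPM in ANKO and 14781 to 17926 CPM in WT. Markers of other cells moved with genotype: 12 skeletal muscle markers summed to 9466 to 13624 CPM in ANKO and 33.8 to 2506 CPM in WT, 10 macrophage markers to 1062 to 1502 CPM in ANKO and 118 to 156 CPM in WT, and 6 fibroblast markers to 3307 to 6157 CPM in ANKO and 747 to 1108 CPM in WT. In such bulk tissue, fewer adipocytes and less RNA per adipocyte cannot be told apart.

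Most peroxisomal transcripts were lower in ANKO brown fat. Of the 29 genes 28 had enough counts to be tested, and 20 of these fell (71.4%), 1 rose and 7 did not pass the test (edgeR adjusted p under 0.05). Over all 16705 genes tested, 27.6% fell and 30.6% rose, 58.2% in either direction. Among the 10557 tested genes whose WT mean lay between that of the lowest and highest tested member, 38.8% fell and 20.2% rose. The fitted change was below 0 in 25 of the 28 members and in 50.6% of all genes. The median log2 fold change (ANKO over WT) was -0.68 over the 28 members and -0.01 over all genes tested. Over the 10557 genes at the WT levels of the members it was -0.19. Falls of at least 1 on the log2 scale were called in 6 of the 28 members and in 7.24% of all genes tested. The summed level of the 29 genes was 3062, 2960, 2582 and 2067 CPM in ANKO libraries 1 to 4, against 4634, 4539, 5279 and 4813 CPM in WT libraries 1 to 4. In 20 members each ANKO library was below each WT library, a pattern seen in 26.4% of all genes tested. Far1, which encodes a fatty acyl-CoA reductase that supplies fatty alcohol for ether lipids, was the 1 member that rose.

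**Figure D1:**
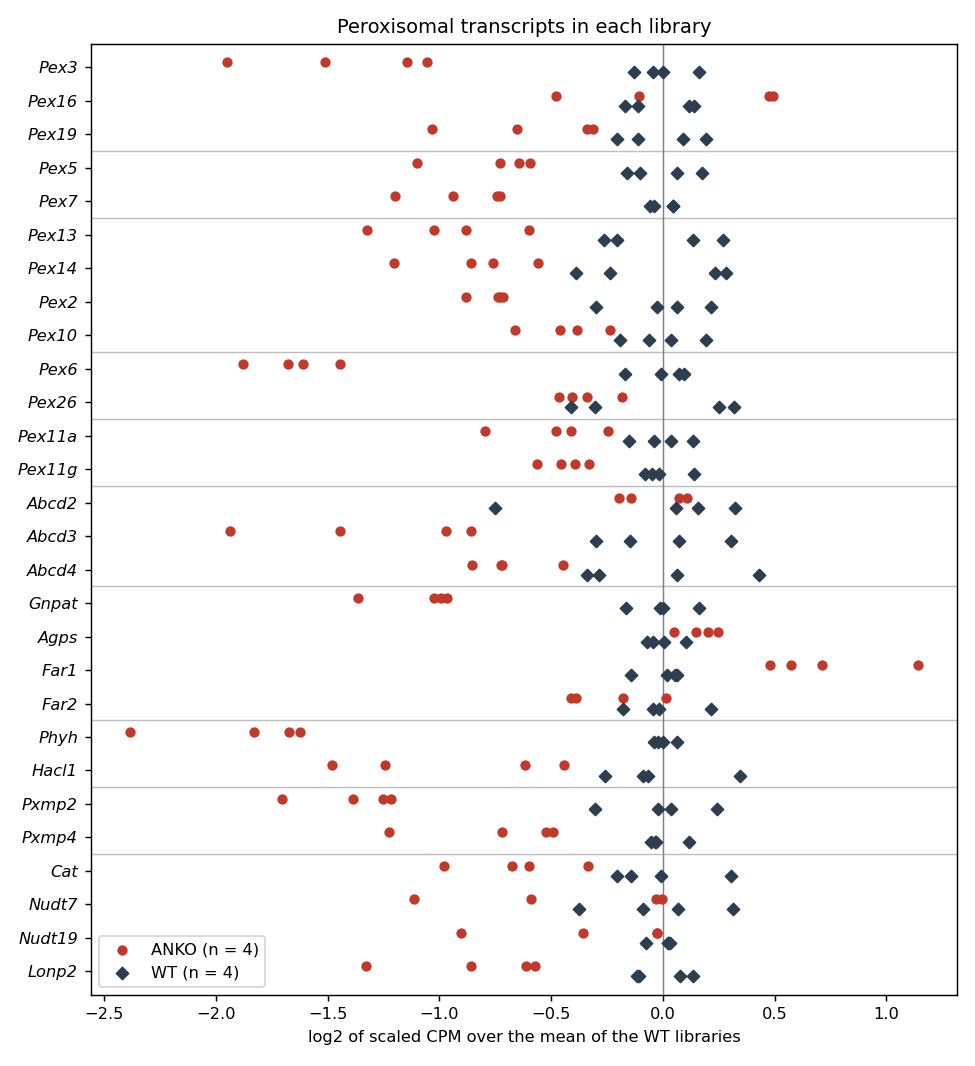
Level of each of the 28 tested genes in each library, as the log2 of its scaled CPM over the mean of the 4 WT libraries. Circles are the 4 ANKO libraries and diamonds the 4 WT libraries, and grey lines separate groups by role. In 20 genes all ANKO circles lie left of all WT diamonds, and in Far1 all lie to the right.

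ANKO4 was the lowest of the 4 ANKO libraries in 24 of the 28 tested genes. It also had the lowest summed levels of general adipocyte markers (6071 CPM) and of 10 brown adipocyte markers (996 CPM, against 2228 to 3566 CPM in the other ANKO libraries), and the smallest total count. With ANKO4 left out the members' median log2 fold change was -0.59, and the calls of the 28 genes stayed on the same side of the threshold.

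Of the 3 genes that insert membrane proteins, Pex3 and Pex19 fell and Pex16 did not pass the test. Pex3 encodes the membrane anchor for the chaperone PEX19. It had 33.3, 35.5, 25.8 and 19.1 CPM in ANKO, against 67.3, 71.5, 82.4 and 73.7 CPM in WT. The groups lay apart, with the highest ANKO library at 35.5 CPM and the lowest WT library at 67.3 CPM, and the log2 fold change came to -1.37 (standard error, SE, 0.17; edgeR adjusted p = 9.34e-05). Pex19 averaged 204 ± 44.5 CPM in ANKO and 300 ± 38.1 CPM in WT (SD, n = 4 each; log2 fold change -0.56, edgeR adjusted p = 0.0169). Without WT3 and WT4, the WT libraries with the least muscle RNA, Pex19 lost its call, at -0.41 (adjusted p = 0.119). Pex16, an integral membrane protein that recruits PEX3, had 123, 122, 81.5 and 62.9 CPM in ANKO, against 81.1, 78.0, 95.2 and 96.5 CPM in WT. ANKO1 and ANKO2 lay above the WT libraries and ANKO4 below them, and the log2 fold change came to 0.15 (SE 0.20, edgeR adjusted p = 0.534).

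Both import receptors fell. Pex5 encodes the receptor for matrix proteins with the common signal at their C terminus. Its level was 140, 154, 149 and 109 CPM in ANKO, against 217, 208, 243 and 263 CPM in WT (log2 fold change -0.75, SE 0.13, edgeR adjusted p = 0.00082). Pex7 encodes the receptor for the rarer signal at the N terminus, which AGPS and PHYH carry. It was read at 33.2, 32.8, 28.7 and 23.9 CPM in ANKO, against 56.7, 53.4, 56.7 and 52.8 CPM in WT (log2 fold change -0.88, SE 0.11, edgeR adjusted p = 8.86e-05). Neither gene had an ANKO library inside the WT range. In the fit with the muscle covariate Pex5 was not called, at -0.44 (edgeR adjusted p = 0.19).

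All 4 genes of the docking and ring complexes fell. Pex13, a docking protein, had 103, 125, 93.1 and 75.6 CPM in ANKO, against 158, 164, 228 and 208 CPM in WT (log2 fold change -0.93, SE 0.17, edgeR adjusted p = 0.00103). Its docking partner Pex14 averaged 43.7 ± 7.86 CPM in ANKO and 77.5 ± 17.7 CPM in WT (SD, n = 4 each; log2 fold change -0.82). The ubiquitin ligase Pex2 had 35.6, 36.0, 35.5 and 32.1 CPM in ANKO, against 68.6, 61.8, 58.1 and 48.1 CPM in WT (log2 fold change -0.76, SE 0.11, edgeR adjusted p = 0.000273). The WT libraries of Pex2 spread more widely than the ANKO libraries, and the groups did not overlap. With the muscle marker covariate described further on, Pex13 and Pex14 lost their calls, at -0.45 and -0.19 (edgeR adjusted p = 0.261 and 0.622). Pex13 overlaps Pus10 on the other strand at its start, with means of 41.8 CPM for Pus10 in ANKO and 62.1 CPM in WT, so reads in that stretch are uncertain. Pex10, the partner of PEX2 in the ring, changed less and averaged 16.6 ± 2.03 CPM in ANKO and 22.4 ± 2.50 CPM in WT (SD, n = 4 each; log2 fold change -0.42, edgeR adjusted p = 0.0132).

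Pex6 had the smallest p of the 29 genes. This ATPase, which recycles the receptors, was read at 107, 95.7, 91.3 and 79.4 CPM in ANKO, against 307, 290, 312 and 260 CPM in WT. That is 3.13-fold lower (log2 fold change -1.64, SE 0.12, edgeR adjusted p = 2.7e-06), and the groups were far apart. Its anchor Pex26 behaved differently, with 17.8 ± 1.52 CPM in ANKO and 22.7 ± 5.79 CPM in WT (SD, n = 4 each; log2 fold change -0.34, edgeR adjusted p = 0.114). WT3 and WT4, at 17.0 and 18.4 CPM, lay within the ANKO range of 16.4 to 19.9 CPM, and WT1 and WT2 lay above it, at 28.3 and 27.0 CPM. Without WT3 alone, Pex26 was called lower (log2 fold change -0.47, adjusted p = 0.0333), and without WT3 and WT4 it was at -0.65 (adjusted p = 0.00222). The membrane-shaping proteins of the PEX11 family, which act in growth and division, showed small falls: Pex11a averaged 29.4 ± 4.51 CPM in ANKO and 40.7 ± 3.42 CPM in WT (SD, n = 4 each; log2 fold change -0.46, edgeR adjusted p = 0.00779). Pex11g averaged 13.2 ± 0.907 CPM in ANKO and 17.9 ± 1.25 CPM in WT (SD, n = 4 each; log2 fold change -0.43, edgeR adjusted p = 0.00527).

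Among the ABCD transporters Abcd3 and Abcd4 fell and Abcd2 did not pass the test. Abcd3 encodes an abundant peroxisomal membrane protein that imports branched-chain and other acyl-CoAs. It had 261, 282, 188 and 133 CPM in ANKO, against 415, 462, 631 and 538 CPM in WT (log2 fold change -1.24, SE 0.24, edgeR adjusted p = 0.00124). In the fit with the muscle covariate it was at -0.79 and not called (edgeR adjusted p = 0.186). Abcd2, an importer of very long-chain and polyunsaturated acyl-CoAs that is prominent in adipose tissue, had 152, 124, 149 and 128 CPM in ANKO, against 177, 158, 83.9 and 147 CPM in WT. The ANKO libraries all lay between WT3 and WT1, and the log2 fold change came to -0.03 (SE 0.20, edgeR adjusted p = 0.902). Abcd4 belongs to the family by sequence but is known for cobalamin export from lysosomes. It averaged 14.3 ± 1.77 CPM in ANKO and 23.0 ± 5.90 CPM in WT (SD, n = 4 each; log2 fold change -0.66, edgeR adjusted p = 0.00922).

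The 4 ether lipid genes did not move together: Gnpat fell, Far1 rose, and Agps and Far2 did not pass the test. GNPAT puts the first acyl chain on dihydroxyacetone phosphate. Its transcript was at 189, 186, 182 and 144 CPM in ANKO, against 413, 366, 370 and 330 CPM in WT, 2.11-fold lower (log2 fold change -1.08, SE 0.13, edgeR adjusted p = 5.92e-05). AGPS next swaps that acyl chain for a fatty alcohol. Agps had 86.1, 95.7, 92.2 and 98.8 CPM in ANKO, against 79.3, 83.4, 89.4 and 80.7 CPM in WT (log2 fold change 0.16, SE 0.08, edgeR adjusted p = 0.113), and the groups overlapped only between ANKO1 and WT3. Far1 had 51.0, 54.4, 60.0 and 80.7 CPM in ANKO, against 33.1, 38.0, 37.0 and 38.2 CPM in WT. All ANKO libraries lay above all WT libraries, ANKO4 highest, and the level was 1.68-fold higher (log2 fold change 0.74, SE 0.14, edgeR adjusted p = 0.00116). Its paralog Far2 was low, at 3.94, 4.49, 3.40 and 3.35 CPM in ANKO, against 4.41, 5.17, 3.94 and 4.32 CPM in WT (log2 fold change -0.22, edgeR adjusted p = 0.272). Far2 overlaps Ergic2 on the other strand, with means of 38.2 CPM in ANKO and 54.5 CPM in WT, and the labels do not say whether counting used strand, so its low counts are uncertain.

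Later steps of the route, and the breakdown of ether lipids, are encoded by genes outside the 29. Of 11 such genes for ether lipid and plasmalogen steps, 4 fell and 2 rose, near the shares of 27.6% and 30.6% over all genes, so the counts set this list little apart. Dhrs7b, the reductase that acts after AGPS, had 62.8, 64.7, 66.6 and 43.7 CPM in ANKO, against 131, 126, 128 and 139 CPM in WT (log2 fold change -1.14, SE 0.13, edgeR adjusted p = 4.69e-05). Tmem189, the desaturase that makes the plasmalogen bond, had 25.8, 22.5, 30.1 and 37.4 CPM in ANKO, against 17.5, 15.6, 16.8 and 16.2 CPM in WT (log2 fold change 0.81, SE 0.15, edgeR adjusted p = 0.000967). These genes also lay apart between the groups, in opposite directions. Agmo, which cleaves alkyl ether lipids, fell 2.11-fold (edgeR adjusted p = 0.000258), and the lysoplasmalogenase Tmem86a rose 2.77-fold from a low level, with 16.8 ± 5.88 CPM in ANKO and 6.03 ± 0.974 CPM in WT (SD, n = 4 each; edgeR adjusted p = 0.000432). The other 2 genes that fell were Selenoi and Cept1, which attach the head group, with log2 fold changes of -0.45 and -0.59. Far1, Tmem189 and Tmem86a lost their calls once the muscle marker level entered the fit (adjusted p = 0.0673, 0.0755 and 0.0875), while their log2 fold changes were then 0.77, 0.79 and 1.21.

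**Figure D2:**
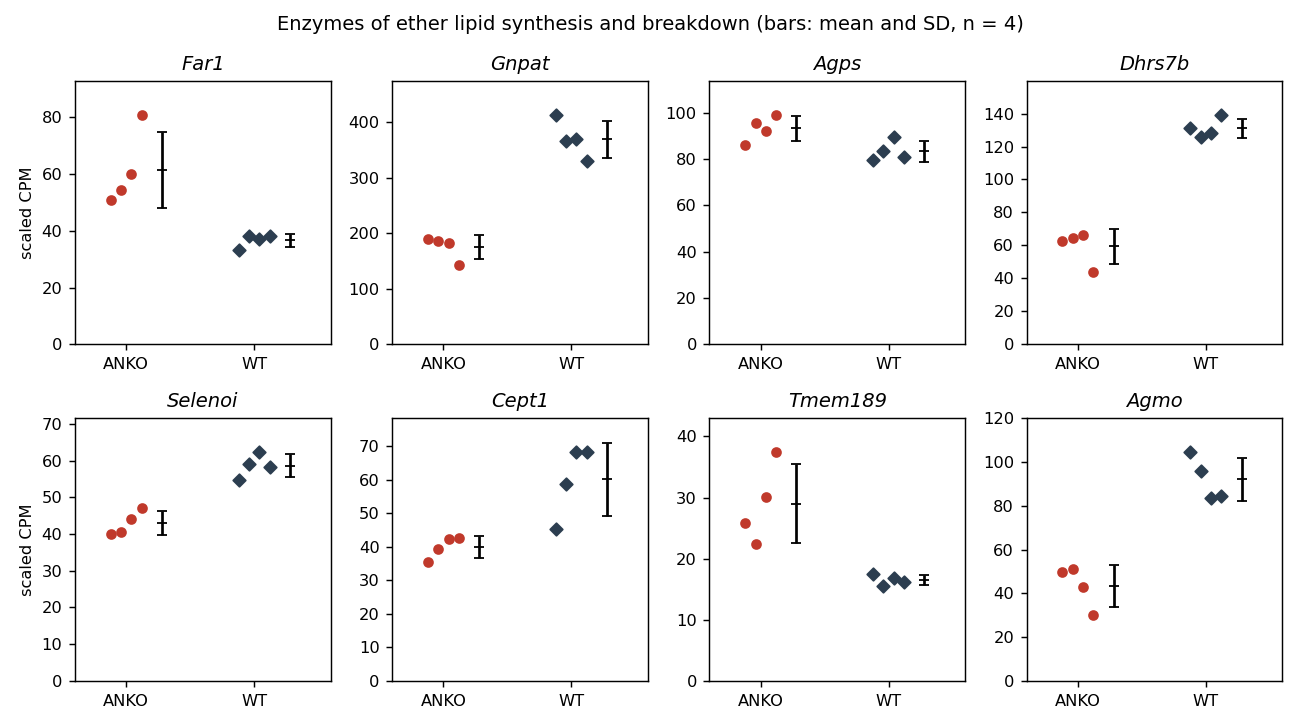
Scaled CPM in each library of the 3 ether lipid enzymes Far1, Gnpat and Agps and of 5 genes for later steps or breakdown, with ANKO circles left of WT diamonds and the mean with its SD (n = 4) beside them; each axis starts at 0. Gnpat, Dhrs7b, Selenoi, Cept1 and Agmo lie lower in ANKO and Far1 and Tmem189 higher, while Agps differs little.

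Both genes of alpha-oxidation fell. Phyh, whose product hydroxylates phytanoyl-CoA, had the largest fall of the 29 genes, 3.60-fold. Its level was 227, 235, 204 and 139 CPM in ANKO, against 706, 713, 757 and 724 CPM in WT (log2 fold change -1.85, SE 0.17, edgeR adjusted p = 1.19e-05). The WT libraries lay close together and ANKO4 was the lowest. Hacl1, the lyase that then removes 1 carbon, averaged 31.7 ± 10.5 CPM in ANKO and 58.6 ± 11.0 CPM in WT (SD, n = 4 each; log2 fold change -0.87, edgeR adjusted p = 0.0082). Hacl1 overlaps Btd on the other strand, with means of 30.9 CPM in ANKO and 46.0 CPM in WT, and only reads in the short stretch that both genes share, at the start of each, cannot be told apart without strand.

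Of the further members, 4 fell, 2 did not pass the test and 1 was not tested. Pxmp2, a channel-forming protein of the peroxisomal membrane, had 9.57, 9.80, 8.70 and 6.99 CPM in ANKO, against 23.4, 22.4, 26.9 and 18.5 CPM in WT (log2 fold change -1.37, SE 0.15, edgeR adjusted p = 3.88e-05). Pxmp4, another membrane protein, had 49.0, 47.9, 41.8 and 29.4 CPM in ANKO, against 67.1, 67.3, 74.5 and 66.4 CPM in WT (log2 fold change -0.71, SE 0.14, edgeR adjusted p = 0.00202). Neither gene overlapped between the groups. Lonp2, the peroxisomal protease and chaperone, averaged 186 ± 41.2 CPM in ANKO and 327 ± 29.2 CPM in WT (SD, n = 4 each; log2 fold change -0.81). Cat, the catalase that breaks down hydrogen peroxide, averaged 534 ± 97.2 CPM in ANKO and 826 ± 136 CPM in WT (SD, n = 4 each; log2 fold change -0.63, edgeR adjusted p = 0.0104). It lost its call without WT3 and WT4, at -0.47 (adjusted p = 0.0802). The coenzyme A hydrolases Nudt7 and Nudt19 did not pass, with log2 fold changes of -0.36 ± 0.24 and -0.28 ± 0.17 (standard errors; edgeR adjusted p = 0.221 and 0.171). Pipox, the sarcosine and pipecolate oxidase, was close to undetectable, with 7, 1, 2 and 7 counts in ANKO and 3, 8, 10 and 9 counts in WT, and gets no fold change. The lowest level that 3 counts can show was 0.437 CPM in ANKO4 and 0.0683 CPM in WT4, counting error only.

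**Figure D3:**
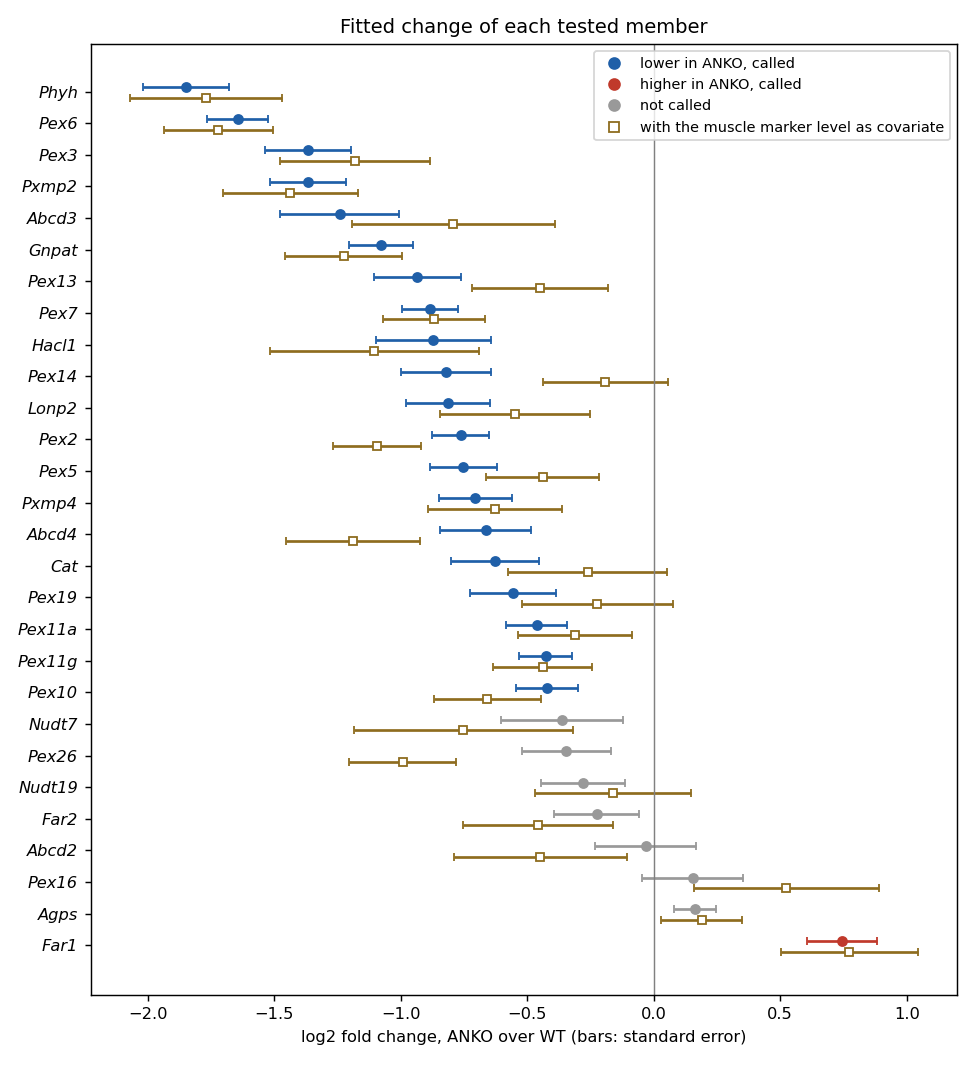
Fitted log2 fold change (ANKO over WT) of the 28 tested genes, with bars of 1 standard error, sorted from the largest fall at the top to the rise of Far1 at the bottom. Filled circles are the fit without a covariate, coloured by call, and open squares the fit with the mean level of 12 skeletal muscle markers as a covariate, in which 10 genes were called lower and 0 higher.

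Compared per kilobase of exon, the abundance order among the genes also differed between the groups. As CPM per kilobase, Phyh was highest in WT, at 383 ± 11.8, before Cat at 316 ± 52.0, while in ANKO Cat was highest, at 204 ± 37.2, before Phyh at 106 ± 23.1 (SD, n = 4 each). Pex16 was at 54.8 ± 16.9 CPM per kilobase in ANKO and 49.4 ± 5.37 in WT, and Pex6 at 24.6 ± 3.03 in ANKO and 77.0 ± 6.21 in WT. Far1 was at 7.64 ± 1.65 CPM per kilobase in ANKO and 4.54 ± 0.294 in WT. It lay below Gnpat in both groups, which was at 48.8 ± 5.92 in ANKO and 103 ± 9.45 in WT.

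The unequal changes can be read within each library, without any scaling, as the ratio of the counts of 2 genes. The 2 genes were related by family, by role or route, or, as Pxmp4 and Pxmp2, by name. Of 8 such pairs, 5 differed between genotypes with no overlap. Each of the 5 had p = 0.0286 in an exact two-sided permutation test (adjusted p = 0.0457 over the 8 pairs). That p is the smallest that 4 against 4 libraries allow. With any 1 library left out, 0 pairs were called. How often the ratio of any 2 genes tested would separate the groups was not counted, while 58.2% of single genes were called in either direction. The ratio of Pex3 to Pex16 was 0.27, 0.292, 0.317 and 0.304 in ANKO, against 0.83, 0.917, 0.865 and 0.763 in WT. Agps reads were 0.455, 0.515, 0.507 and 0.688 per Gnpat read in ANKO, against 0.192, 0.228, 0.242 and 0.245 in WT. For Abcd2 over Abcd3 the ratio was 0.583, 0.438, 0.792 and 0.961 in ANKO, against 0.426, 0.342, 0.133 and 0.274 in WT, so the nearest libraries of this pair almost touched. The mean log2 ratio of Far2 to Far1 differed by -0.95 between ANKO and WT, and that of Pxmp4 to Pxmp2 was higher by 0.63. The other 3 pairs did not pass: the ratio differed by -0.14 for Pex7 over Pex5, by -0.05 for Pex11a over Pex11g and by 0.09 for Nudt19 over Nudt7 on the log2 scale, with exact permutation p-values of 0.257, 0.657 and 0.657.

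**Figure D4:**
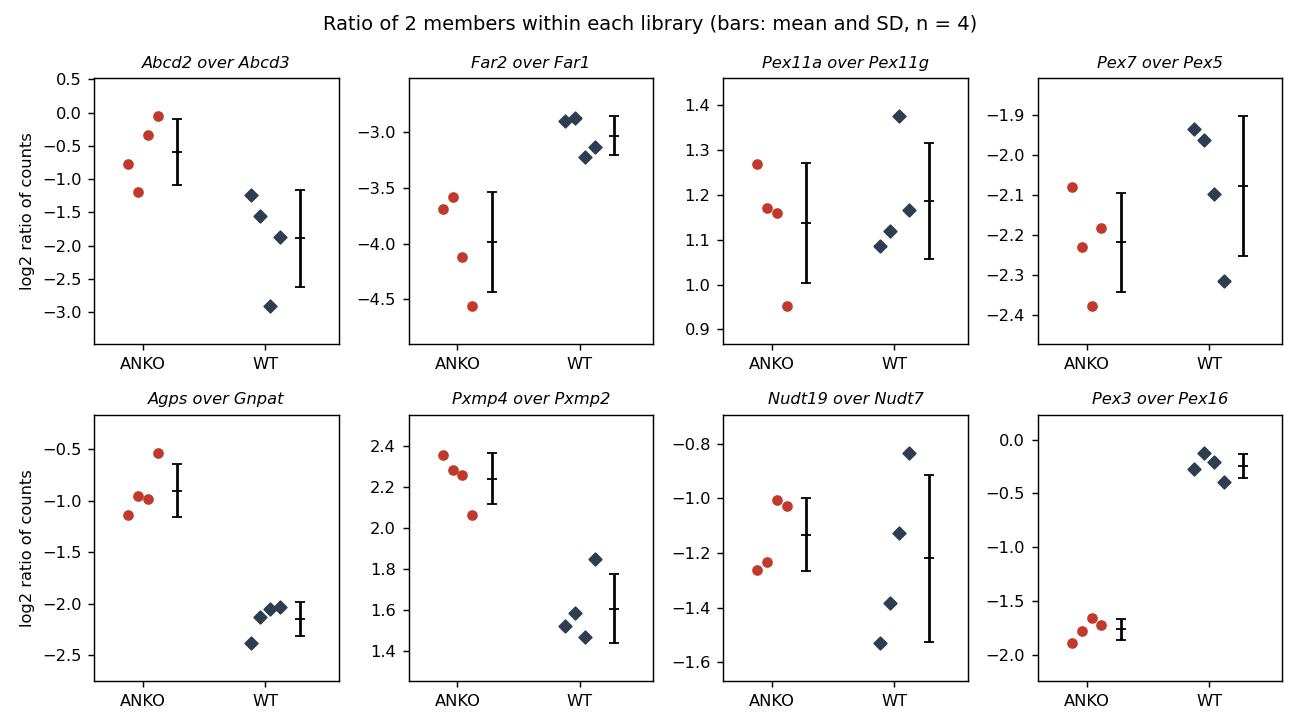
Log2 of the ratio of counts of 2 genes within each library for 8 pairs, with ANKO circles left of WT diamonds and the mean with its SD (n = 4) beside them. Abcd2 over Abcd3, Agps over Gnpat and Pxmp4 over Pxmp2 lie higher in ANKO, Far2 over Far1 and Pex3 over Pex16 lower, and the other 3 pairs overlap.

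The sequence upstream of the start site was examined for a DR1 element, the form bound by PPAR and RXR. Promoter windows from RefSeq (GRCm38.p6, 250 bases before to 50 after the start) were at hand for 24 of the 29 genes. The motif AGGTCANAGGTCA was searched on both strands with up to 2 mismatches at its 12 fixed letters. It was found in 1 of the 30 windows of the 24 genes, that of Cat. Over all 32851 windows 3.86% held it, so the members were near that share. The 250 bases before the start are shown for Cat, with the match in capitals, and for Phyh and Far1, the genes with the largest fall and with the rise, whose windows held no match; no match says only that these letters are not in the window.
Cat, chr2:103485154-103485403, minus strand: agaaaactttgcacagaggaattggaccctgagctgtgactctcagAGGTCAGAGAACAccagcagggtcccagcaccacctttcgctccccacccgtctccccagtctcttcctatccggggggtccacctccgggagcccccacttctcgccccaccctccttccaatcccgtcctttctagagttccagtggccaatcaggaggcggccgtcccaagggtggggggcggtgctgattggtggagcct
Phyh, chr2:4918746-4918995, plus strand: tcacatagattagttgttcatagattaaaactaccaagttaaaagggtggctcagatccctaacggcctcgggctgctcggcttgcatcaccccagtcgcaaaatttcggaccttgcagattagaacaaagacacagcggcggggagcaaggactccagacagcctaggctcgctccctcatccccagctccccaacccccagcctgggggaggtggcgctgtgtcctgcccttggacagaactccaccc
Far1, chr7:113513584-113513833, plus strand: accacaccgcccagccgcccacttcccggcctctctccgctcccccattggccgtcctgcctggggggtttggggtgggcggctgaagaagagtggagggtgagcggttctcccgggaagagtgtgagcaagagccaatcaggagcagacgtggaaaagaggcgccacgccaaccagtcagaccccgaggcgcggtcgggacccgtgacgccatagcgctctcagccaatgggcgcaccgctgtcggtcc
The Cat match began 204 bases before the start, and the upstream stretches held 9 CpG sites for Cat, 9 for Phyh and 21 for Far1.

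Most of the other peroxisomal genes tested were lower in ANKO as well, and their counts stand against 27.6% lower and 30.6% higher over all genes. Of 5 further peroxins and relatives, 4 fell and 0 rose. Pex5l, a receptor relative, did not pass, at 0.65 ± 0.27 (standard error). Of 22 tested genes for peroxisomal beta-oxidation, acyl-CoA handling and acyl transfer, 16 fell and 1 rose, with a median log2 fold change of -1.03. The smallest p was that of Slc27a2, which activates very long-chain fatty acids to their CoA esters. It had 35.7, 36.3, 24.7 and 19.8 CPM in ANKO, against 259, 323, 465 and 475 CPM in WT (log2 fold change -3.70, SE 0.27, edgeR adjusted p = 3.04e-06). Ehhadh, the bifunctional enzyme, had 51.9, 37.1, 62.2 and 41.1 CPM in ANKO, against 155, 161, 144 and 183 CPM in WT (log2 fold change -1.74, edgeR adjusted p = 1.23e-05). Acox2, the oxidase for branched-chain and bile acid precursors, was the 1 that rose, with 5.04 ± 1.87 CPM in ANKO and 1.14 ± 0.188 CPM in WT (SD, n = 4 each; edgeR adjusted p = 0.000142). Of 22 further peroxisomal enzymes and membrane proteins tested, 14 fell and 1 rose. The glutathione transferase Gstk1 fell 2.81-fold, while the xanthine dehydrogenase Xdh, which is mainly cytosolic, rose 1.79-fold. In fission and pexophagy 6 of 10 fell and 3 rose, the rises being close to the share over all genes: the division factor Mff fell 1.53-fold and the deubiquitinase Usp30 1.39-fold. Gdap1, a membrane protein of fission, had 1.58 ± 0.186 CPM in ANKO and 0.104 ± 0.0677 CPM in WT (SD, n = 4 each; edgeR adjusted p = 2.25e-05), which is 12 to 37 counts in ANKO and 1 to 5 counts in WT, and the kinase Atm rose 1.35-fold.

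Of 9 transcription factors and coactivators known to act on peroxisomal genes, 7 fell and 1 rose, against 27.6% and 30.6% over all genes. Ppara, the nuclear receptor named for peroxisome proliferators, had 87.6, 149, 174 and 91.4 CPM in ANKO, against 604, 553, 549 and 626 CPM in WT, 4.65-fold lower (log2 fold change -2.22, SE 0.23, edgeR adjusted p = 2.37e-05). Prdm16, which drives brown fat identity, had 22.9, 24.7, 28.8 and 22.7 CPM in ANKO, against 48.0, 70.3, 51.4 and 57.6 CPM in WT (log2 fold change -1.20, edgeR adjusted p = 4.77e-05). In both genes each ANKO library was below each WT library. Ppargc1a, Ppargc1b, Pparg, Esrra and Esrrg fell as well, with log2 fold changes of -2.09, -1.68, -1.07, -0.97 and -1.37. Rxra, the shared partner of PPARs, rose slightly, with 131 ± 6.69 CPM in ANKO and 106 ± 15.4 CPM in WT (SD, n = 4 each; log2 fold change 0.31, edgeR adjusted p = 0.0361, a call lost in 7 of the 8 fits that left out 1 library), and Ppard did not pass, at -0.09 ± 0.16 (standard error).

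Markers of several cell types differed between the genotypes, as the summed level of the 29 genes did, some in the same direction and some in the opposite one. General adipocyte markers had a median log2 fold change of -0.91 over 9 genes and brown adipocyte markers one of -1.39 over 10 genes, against -0.68 for the peroxisomal genes. Of the general adipocyte markers 8 fell and 1 rose, and of the brown adipocyte markers 7 fell and 3 did not pass the test. The general markers include Pparg and the brown ones Ppargc1a and Prdm16, which were also counted among the transcription factors above. Of the 12 muscle markers 10 rose, of the 10 macrophage markers 10 and of the 6 fibroblast markers 6. Of 9 lymphocyte markers 8 rose, while 4 of 6 endothelial, 4 of 4 erythroid and 1 of 2 tested hepatocyte markers fell. None of these markers was at 0 counts in all libraries. With the mean muscle marker level in the fit as a covariate, 10 of the 28 genes were called lower and 0 higher, against 9.39% lower and 12.9% higher over all genes tested in that fit. Of the 20 falls 9 kept their call: Pex2, Pex3, Pex6, Pex7, Pex10 (edgeR adjusted p = 0.0497), Abcd4, Gnpat, Phyh and Pxmp2. The other 11 lost it. In that fit Hacl1 was at -1.10, Pex11g at -0.44, Pxmp4 at -0.63 and Abcd3 at -0.79, while Lonp2 was at -0.55, Pex13 at -0.45, Pex5 at -0.44, Pex11a at -0.31, Cat at -0.26, Pex19 at -0.22 and Pex14 at -0.19 (log2 fold changes). Hacl1 and Pex11g were thus no smaller than without the covariate, and Pex13, Pex14, Cat and Pex19 were less than 0.5 of their size without it. Pex26 gained a call, at -0.99 (adjusted p = 0.00845). The covariate was 8.58 to 9.04 in ANKO and 0.852 to 6.50 in WT on the log2 CPM scale, so it did not overlap between genotypes and the standard errors widened, for Abcd3 to 0.40. Without WT3 and WT4, which had the least muscle RNA, 19 genes were called lower, 18 of them among the 20, and 1 higher, against 22.3% lower and 27.1% higher over all genes tested in that fit. The part that other cell types have in these values was not tested beyond these fits.

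**Figure D5:**
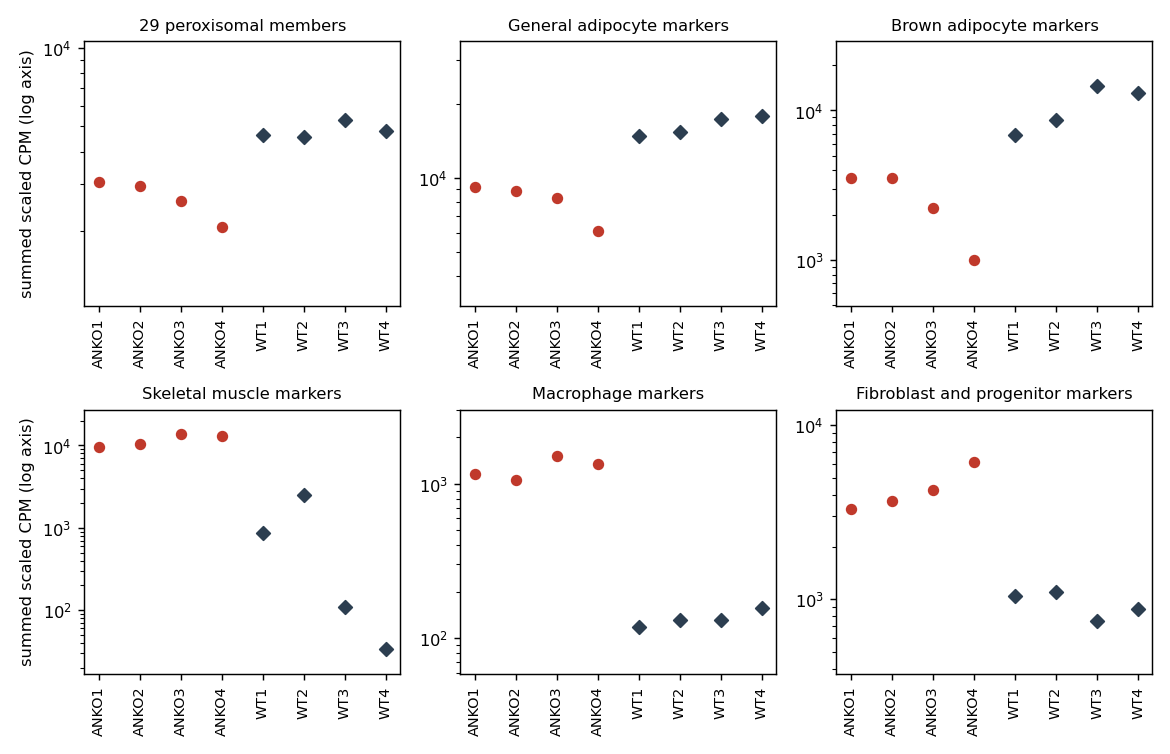
Summed scaled CPM in each library, on log axes, of the 29 peroxisomal genes and of 5 marker lists, with the ANKO libraries left of the WT libraries. The peroxisomal sum was 2067 to 3062 CPM in ANKO and 4539 to 5279 CPM in WT, while the muscle marker sum was 9466 to 13624 CPM in ANKO and 33.8 to 2506 CPM in WT.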

How the data were processed

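Total RNA of brown fat from 8 mice was sequenced after library preparation with a Ribo-Zero Gold kit, which removes rRNA, per the labels' protocols. The submitters' tools include STAR 2.0.4b for alignment and, for counting, featureCounts 1.45 of Subread on GRCm38, per the submitters' processing notes; annotation release, strand setting and multi-mapping are not given there. The authors deposited for each gene a read count, a CPM and an RPKM, per the file headers. The deposited CPM is the count scaled by the sum of its table and the deposited RPKM that CPM per kilobase; only the deposited counts were analysed.

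Symbols came from GENCODE M21 (GRCm38), matching 40340 of 41388 genes. The 355 rRNA rows (0.801% to 1.13% of counts in ANKO, 2.83% to 3.53% in WT) were left out. edgeR 4.0.16 in R 4.3.3 was used with filterByExpr, TMM scaling and the robust quasi-likelihood test on all 8 libraries, with Benjamini-Hochberg adjustment over 16705 genes. Printed CPM are TMM-scaled; standard errors derive from the F statistic. Ratios of counts used a pseudocount of 0.5 and an exact permutation test. The gene test was also run on simulated counts in which few genes changed. That run does not show how the test does where changes are as common as here. Overlapping genes were read from the deposited coordinates. Peroxisomal and marker lists and the members were chosen with earlier results of these data known. Named genes are the 29 members, up to 2 called genes per direction from each other list, all transcription factors, and Nampt; values in every library are given for the 10 members with the smallest p, for those that rose and for those in called pairs. Selenoi, Cept1, Pex5l and overlapping genes, outside that rule, were named after their values were seen. Alternatives were other scalings, filters, DESeq2 1.42.0, limma-voom (limma 3.58.1), the replicate number as a block, libraries left out, a muscle covariate and a stricter threshold. Some genes that this rule names are not reported here. Protein sequences were not used here. The replicates are 4 mice per group, as the series design states. PCR copies are not independent molecules. Figures used matplotlib 3.10.9.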

Additional observations from a re-analysis of the deposited data

Results flagged for a closer look

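A library of 1 group stood far from the other 3 by Dixon's ratio in 6 of the 60 groups of 4 libraries examined, the 29 genes and Nampt in each genotype, where chance alone would give about 3. ANKO4 was such a low library for Pex2, at 32.1 CPM, and for Gnpat, at 144 CPM. For Pipox ANKO4 was the high one, at 1.02 CPM, which is 7 counts. Among the WT libraries, WT3 was high for Pxmp4, at 74.5 CPM, and for Nampt, at 571 CPM, and WT2 was low for Nudt19, at 41.4 CPM.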

How the results depend on the processing

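The median of the members tested (28, or 29 with no filter) stayed between -0.76 and -0.59 under every alternative fit, and no call changed direction. At adjusted p under 0.01, 17 members were lower and 1 higher, with Pex19, Pex10 and Cat losing their calls. Over all 16705 genes tested, 3180 were lower and 4091 higher at that threshold. With 1 library left out, members called lower were 20 to 21 and higher 1 in each case. Over all genes, 4098 to 4912 were then lower and 4780 to 5555 higher, of 16715 to 17406 tested. Other scaling, filters, DESeq2 and limma-voom changed no member's call. The muscle covariate moved the counts most, to 10 lower and 0 higher members and to 1569 lower and 2161 higher genes over all. With the replicate block 21 members were lower, Nudt7 gaining a call at -0.41, against 4278 genes lower and 4961 higher over all. Same-numbered libraries deviated together with correlations of -0.05 to 0.11, so the numbers were not taken as pairs. For the pair ratios 5 pairs were called. The replicate block gave 0, since 4 pairs of libraries allow no p below 0.125. Leaving out 1 library gave 0 calls in each case, with adjusted p at or above 0.0571. Pex3 over Pex16, Agps over Gnpat and Pxmp4 over Pxmp2 kept an exact permutation p of 0.0286 in each of these fits. That is the smallest p these libraries allow, and the adjustment lifted it to 0.0571. With at most 1 mismatch in the DR1 motif 0 members had a match. Low genes are least precise in ANKO4, the library with the fewest counts.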
